A study of Zea mays with 12 samples.

Results

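The glutathione transferase family was followed in maize leaves through 35 probe sets, which stand for 31 genes. They were chosen by name: a probe set belonged when the array annotation's gene symbol, or the RefSeq symbol or a synonym of its gene, was gst followed by a number. They are 35 of the 1452 probe sets with a single gene name and of the 17555 probe sets tested. The genes gst13 and gst31 are read by more than 1 probe set, and each other gene by 1. Glutathione transferases join the tripeptide glutathione to reactive or foreign molecules, and the conjugates are then moved into the vacuole. In plants most of these enzymes fall into the phi and tau classes. Maize glutathione transferases are best known for detoxifying herbicides, and the transcripts of several rise with safeners, oxidative stress or metals.

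Leaves came from seedlings of 2 tropical maize inbred lines, Cat100-6, which tolerates aluminium, and S1587-17, which is sensitive to it. Seeds germinated for 2 days and then grew for 3 days, 20 seeds to a bag, in an acid soil of pH 4.1 with 10 mmolc of aluminium per dm3, or in control soil. The control soil was the same soil limed with calcium hydroxide to pH 5.5, at which aluminium was not detectable by the soil analysis. Both soils received the same fertilizer, and the acid soil also received calcium chloride, so that acidity, aluminium and the calcium salt differ together and cannot be told apart. Each line is 1 inbred, so a difference between lines is one between these 2 genotypes. The 4 groups, Cat100-6 in control soil, Cat100-6 in acid soil, S1587-17 in control soil and S1587-17 in acid soil, have 3 arrays each. The labels call them biological replicates and do not say whether they came from separate bags, so p-values reflect only how far these samples spread, which may be technical.

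Values are log2 expression after RMA, which brings the arrays to a common distribution and condenses the probes of each set into 1 value. Medians per array lay between 7.14 and 7.29. S1587-17 control soil replicate 3 correlated at only 0.963 to 0.967 with the other arrays of its group, and at 0.950 to 0.953 with Cat100-6 in control soil. At 28 of the 35 member probe sets it deviated from the mean of the other S1587-17 control arrays toward the Cat100-6 control mean. These include members whose lines were level, such as gst37. Only the direction was counted, and at some members the array lay beyond the Cat100-6 mean. At gst19 it read 10.91, against means of 9.71 for the other S1587-17 control arrays and 9.79 for Cat100-6 control soil. Among the 14 members whose lines differed by over 1 in control soil without this array, it deviated toward Cat100-6 at 11. It was kept. No call of a member was lost without it, and calls gained without it are named under the comparison they belong to. Leaf marker probe sets were bright, with a median level of 13.1 over 20 probe sets, against 3.27 over 21 seed marker probe sets. Levels of the seed marker probe sets ran from 2.05 to 8.36. The source labels name leaves, and the description field of each sample reads "root leaves". Of the 2 root-preferential genes that could be matched on the array, zrp4 averaged 7.78 ± 0.32 in Cat100-6 control soil and between 5.68 and 5.97 in the other groups, while mir1 averaged between 4.89 and 5.41 in all groups. In whole leaves, a change in cell makeup and a change of RNA per cell cannot be told apart.

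Differences were tested with limma across the 17555 probe sets, and a difference passed when its Benjamini-Hochberg adjusted p was under 0.05. A member separated the lines when both soils passed with the same sign and the arrays of the lines did not overlap in either soil. A member moved with soil when the response of a line passed and its arrays in the 2 soils did not overlap. By these definitions, 12 members separated the lines in both soils and 20 moved with soil, of which 5 did both. Among all probe sets tested, 17.2% separated the lines and 54.4% moved with soil. The family's shares, 34.3% and 57.1%, are descriptions of a list chosen by name. Without the deviating array 13 members, with gst14 added, separated the lines (21% of all probe sets) and 21, with gst28 added, moved with soil (60.3%). Separately, 7 members separated the lines without moving with soil, against 9.69% of all probe sets. Another 15 moved with soil without separating the lines in both soils (46.9%), and 8 met neither definition (35.9%). Members of these last groups could still differ between the lines in a single soil. Examples are gst11 and gst17 in control soil and gst14 and gst37 in acid soil, and all such members are named below.

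**Figure D1:**
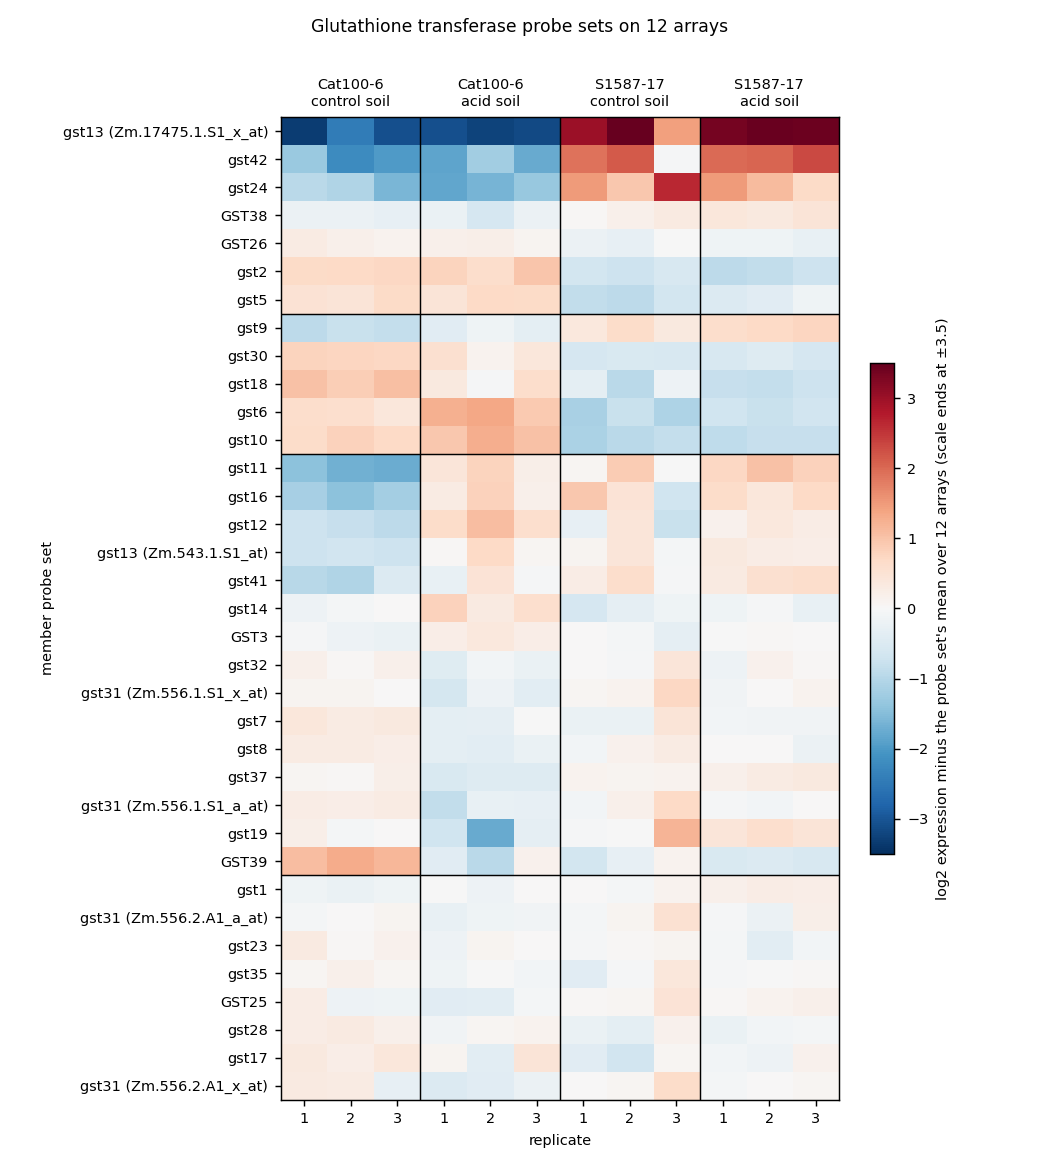
Log2 expression of the 35 member probe sets on the 12 arrays, each row shown as the difference from its own mean over the arrays, with the arrays in columns by line and soil. The top 2 blocks of rows split by line in both soils. The lower of these and the block under it differ between the 2 soils in Cat100-6 but not by a passing test in S1587-17. The rows of the bottom block met neither rule.

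The members with the largest measured log2 gaps between the lines were gst13, gst42 and gst24, all higher in S1587-17. The probe set Zm.17475.1.S1_x_at of gst13 (LOC541831) read 3.18, 4.03 and 3.42 in Cat100-6 control soil and 3.40, 3.25 and 3.33 in Cat100-6 acid soil. In S1587-17 it read 9.48, 10.16 and 7.92 in control soil and 9.83, 9.94 and 9.92 in acid soil. Every S1587-17 array was thus far above every Cat100-6 array, and soil made no passing difference in either line. The gap was 5.65 ± 0.43 in control soil (log2 difference ± SE, adjusted p = 2.57e-06) and 6.57 ± 0.43 in acid soil (adjusted p = 1.01e-06). The Cat100-6 values lie near the median level of the seed marker probe sets and are not shown to be above background. The size of this gap is therefore not exact and no fold is given. Without the deviating S1587-17 array the gap in control soil was 6.28.

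The gene gst42 (LOC541850) read 6.13, 5.24 and 5.45 in Cat100-6 control soil and 5.59, 6.21 and 5.67 in Cat100-6 acid soil, against 9.34, 9.60 and 7.40 in S1587-17 control soil and 9.41, 9.49 and 9.74 in S1587-17 acid soil. The lines did not overlap in either soil, and the lowest S1587-17 value was again replicate 3. Its gap was 3.17 ± 0.47 in control soil (adjusted p = 0.000247) and 3.73 ± 0.47 in acid soil (adjusted p = 0.00017), and 3.86 in control soil without that array. The gene gst24 (LOC541837) read 5.01, 4.91 and 4.34 in Cat100-6 control soil and 4.13, 4.33 and 4.64 in Cat100-6 acid soil, against 7.45, 6.91 and 8.60 in S1587-17 control soil and 7.46, 7.06 and 6.62 in S1587-17 acid soil. Here replicate 3 was the highest S1587-17 array, and all 6 arrays of that line stood above all 6 of Cat100-6. Its gap was 2.90 ± 0.37 in control soil (adjusted p = 9.31e-05) and 2.68 ± 0.37 in acid soil (adjusted p = 0.000328). Without replicate 3 the gap of gst24 in control soil was 2.43. Its Cat100-6 values are not shown to be above background, so the size of this gap is not exact.

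With them gst9 and GST38 were higher in S1587-17 in both soils, making 5 such members, against 6.98% of all probe sets. The gap of gst9 was 1.29 in control soil and 0.99 in acid soil, and that of GST38 was 0.40 and 0.74. With arrays scaled to the spiked hybridization controls, the gap of gst9 in acid soil (adjusted p = 0.0549) and that of GST38 in both soils (adjusted p = 0.119 and 0.181) did not pass, while all 5 stayed higher in S1587-17. A gap between lines at 1 probe set can come from a sequence difference in the probed stretch as well as from RNA level, and these cannot be told apart here.

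**Figure D2:**
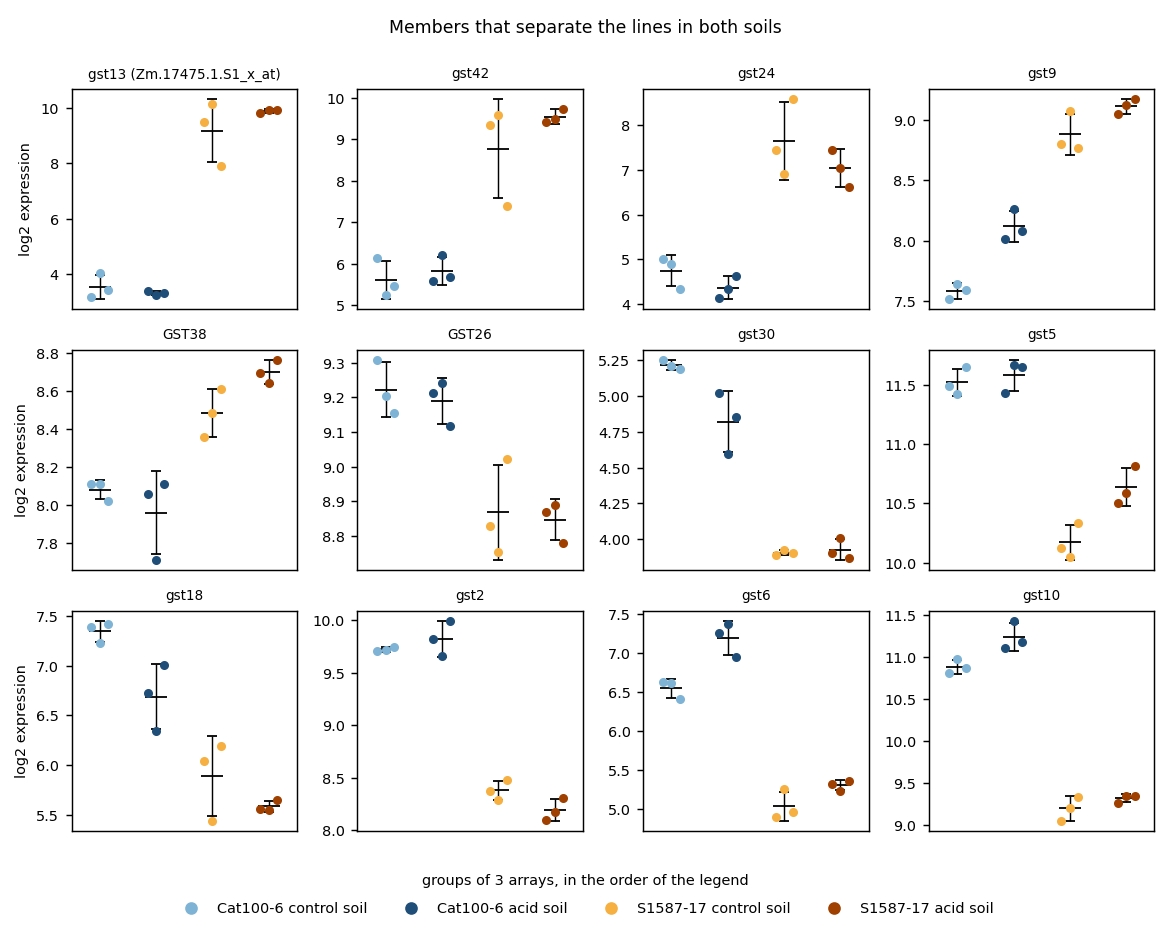
Log2 expression of the 12 members that separated the lines in both soils, 1 panel per probe set, with a point for each array and bars for the group mean ± SD (n = 3). Arrays of S1587-17 lie above those of Cat100-6 for gst9, gst13, gst24, GST38 and gst42 and below them for the other 7 members, in both soils.

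The other 7 members that separated the lines were lower in S1587-17, against 10.2% of all probe sets. They include gst2, which encodes a phi class subunit, and gst5, a tau class enzyme known from maize to be inducible by safeners. The gene gst10 (LOC541828) read 10.81, 10.98 and 10.87 in Cat100-6 control soil and 11.11, 11.43 and 11.18 in Cat100-6 acid soil, against 9.05, 9.21 and 9.34 in S1587-17 control soil and 9.27, 9.35 and 9.35 in S1587-17 acid soil. The lines stood more than 1 log2 unit apart on every array. S1587-17 was lower, with log2 differences of -1.69 ± 0.11 in control soil (adjusted p = 8.01e-07) and -1.92 ± 0.11 in acid soil (adjusted p = 3.33e-07).

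The gene gst6 (LOC541991) read 6.62, 6.62 and 6.41 in Cat100-6 control soil and 7.25, 7.38 and 6.95 in Cat100-6 acid soil, against 4.89, 5.25 and 4.95 in S1587-17 control soil and 5.32, 5.23 and 5.35 in S1587-17 acid soil. All S1587-17 arrays were below all Cat100-6 arrays, with log2 differences of -1.52 ± 0.13 in control soil (adjusted p = 6.39e-06) and -1.89 ± 0.13 in acid soil (adjusted p = 1.66e-06). The gene gst2 (LOC542311) read 9.70, 9.71 and 9.75 in Cat100-6 control soil and 9.82, 9.65 and 9.99 in Cat100-6 acid soil, against 8.38, 8.29 and 8.48 in S1587-17 control soil and 8.10, 8.17 and 8.31 in S1587-17 acid soil. It was lower in S1587-17, with log2 differences of -1.34 ± 0.10 in control soil (adjusted p = 2.87e-06) and -1.63 ± 0.10 in acid soil (adjusted p = 8.08e-07), and no soil response of it passed in either line.

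The remaining 4 of these members had log2 differences, S1587-17 minus Cat100-6, of -1.35 and -0.95 for gst5 in control and acid soil, -1.45 and -1.10 for gst18, -1.31 and -0.90 for gst30, and -0.35 and -0.34 for GST26. The S1587-17 means of gst30, 3.90 in control soil and 3.93 in acid soil, are not shown to be above background. The size of its gap is therefore not exact. The gap of GST26 in control soil did not pass with arrays scaled to the spiked controls (adjusted p = 0.114). Of the 12 separating members, 9 passed in both soils under each of the 4 scalings tried, and all 12 kept their sign.

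Taken soil by soil, 19 members differed between the lines in control soil, 9 higher and 10 lower in S1587-17, against 51.7% of all probe sets, of which 23.3% were higher and 28.4% lower. In acid soil 16 differed, 8 higher and 8 lower, against 24% of all probe sets, 10.7% higher and 13.4% lower. This even split depends on the scaling. With arrays scaled to the spiked controls fewer members were higher and more were lower, against 3.01% and 36.1% of all probe sets. The median gap over the members in acid soil was 0.16 in the main fit and -0.29 with that scaling. Members that passed in control soil and not in acid soil were gst11, gst13 at its probe set Zm.543.1.S1_at, gst16, gst17, gst28, GST39 and gst41, against 33.9% of all probe sets. Those that passed in acid soil and not in control soil were gst1, gst14, gst19 and gst37, against 6.21%. Whether a gap itself differed between the soils is the same test as the difference of the lines' responses, given below for the members that passed it. Without the deviating array 10 were higher and 13 lower in control soil, against 61.5% of all probe sets, and 11 higher and 10 lower in acid soil, against 33.8%. The added members were gst7, gst12, gst14 and gst35 in control soil and GST3, gst12, GST25 and the gst31 probe sets Zm.556.1.S1_a_at and Zm.556.1.S1_x_at in acid soil.

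In Cat100-6, 20 members changed in acid soil, 10 higher and 10 lower, against 55.1% of all probe sets, of which 23.6% were higher and 31.5% lower. Without the deviating array 12 fell, with gst28 (adjusted p = 0.0424) and the gst31 probe set Zm.556.2.A1_x_at (adjusted p = 0.0171) added, against 36.2% of all probe sets. The median response was -0.19 over the members and -0.14 over all probe sets. The size of that shift depends on the scaling: with the arrays set to the spiked hybridization controls, which averaged 10.21 ± 0.21 in control soil and 9.71 ± 0.31 in acid soil (SD, n = 3), the median over all probe sets was 0.36 and that over the members 0.30. Of 20 leaf marker probe sets, 14 fell and 1 rose in Cat100-6 in acid soil, and 2 fell and 2 rose with the spiked scaling. Both root-preferential genes fell there, zrp4 by 1.81 (adjusted p = 0.000151) and mir1 by 0.52 (adjusted p = 0.0226), and 1 of the 2 did with the spiked scaling. The part of these markers in the members' changes was not tested.

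The largest rise was that of gst11 (LOC541829), from 7.66, 7.43 and 7.36 in Cat100-6 control soil to 9.52, 9.89 and 9.31 in acid soil. In S1587-17 it already read 9.19, 9.99 and 9.08 in control soil, and 9.82, 10.12 and 9.90 in acid soil. Cat100-6 in control soil was thus the only group of the 4 below 9. The rise was 2.09 ± 0.23 (adjusted p = 9.08e-05), 4.26-fold. The line gap of 1.94 in control soil (adjusted p = 5.02e-05) was 0.37 in acid soil (adjusted p = 0.272).

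The gene gst16 (LOC542490) read 5.85, 5.57 and 5.82 in Cat100-6 control soil and 7.29, 7.81 and 7.18 in Cat100-6 acid soil, against 7.95, 7.48 and 6.31 in S1587-17 control soil and 7.65, 7.41 and 7.71 in S1587-17 acid soil. It rose in Cat100-6 by 1.68 ± 0.33 (adjusted p = 0.00196), and the low S1587-17 control array is replicate 3. The gene gst12 (LOC541830) read 7.96, 7.88 and 7.79 in Cat100-6 control soil and 9.34, 9.76 and 9.29 in Cat100-6 acid soil, against 8.41, 9.12 and 7.91 in S1587-17 control soil and 8.85, 9.07 and 8.95 in S1587-17 acid soil. It rose in Cat100-6 by 1.59 ± 0.25 (adjusted p = 0.000568), to a level above every S1587-17 array.

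The probe set Zm.543.1.S1_at of gst13 read 8.60, 8.65 and 8.58 in Cat100-6 control soil and 9.37, 10.02 and 9.39 in Cat100-6 acid soil, against 9.42, 9.75 and 9.26 in S1587-17 control soil and 9.66, 9.57 and 9.55 in S1587-17 acid soil. Its rise in Cat100-6 was 0.98 ± 0.17 (adjusted p = 0.00107), and the acid soil arrays of that line overlapped both S1587-17 groups. The other members that rose were gst41 by 0.88 ± 0.22, gst6 by 0.64 ± 0.13, gst14 by 0.63 ± 0.14, gst9 by 0.54 ± 0.11, GST3 by 0.43 ± 0.10 and gst10 by 0.35 ± 0.11. GST3 encodes a phi class enzyme that is among the abundant glutathione transferases of maize. Under each of the 4 scalings 9 of the 10 rises passed, the exception being gst10 with array medians subtracted (adjusted p = 0.0976). The spiked scaling raises every Cat100-6 response by the same amount, so it could only enlarge these rises. With it 37.5% of all probe sets rose, against 23.6% in the main fit.

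**Figure D3:**
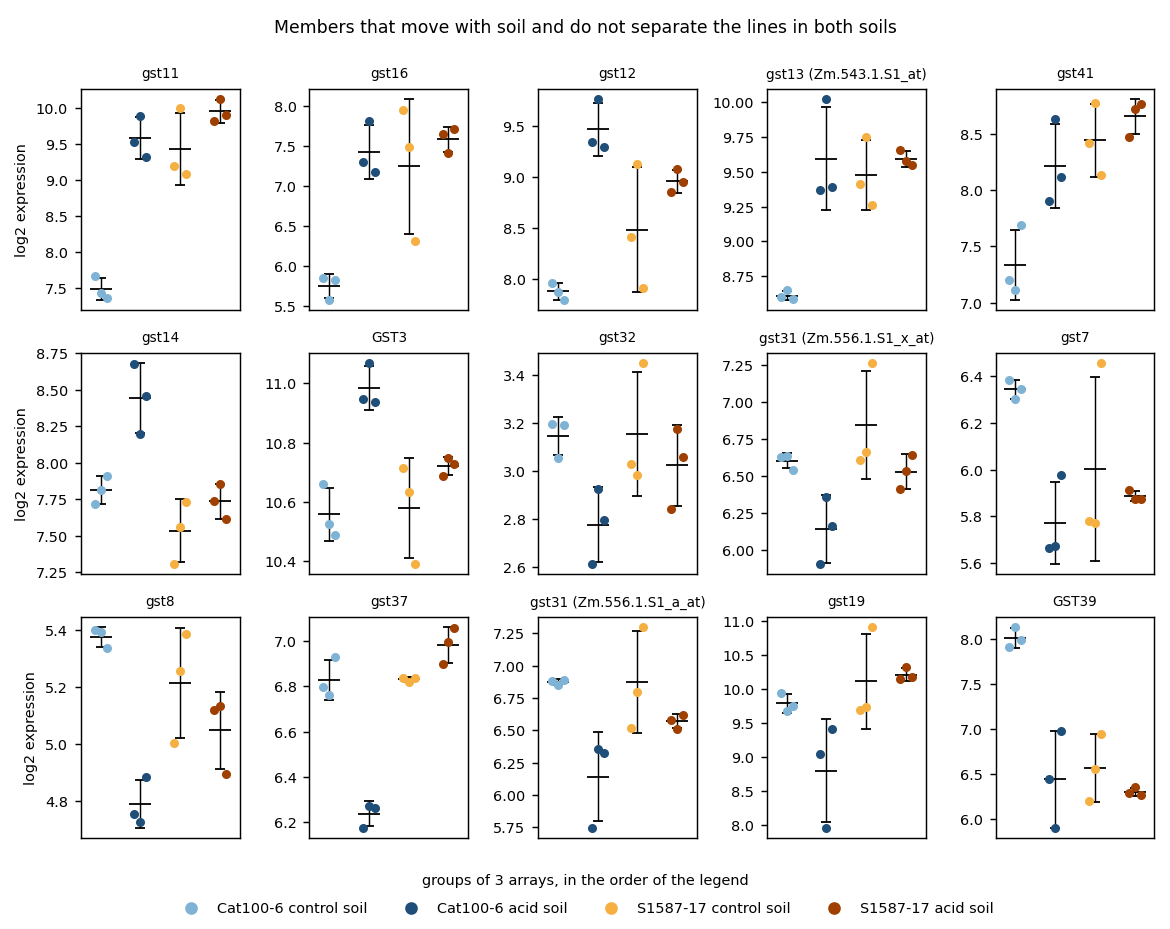
Log2 expression of the 15 members that moved with soil in Cat100-6 without separating the lines in both soils, 1 panel per probe set, with a point for each array and bars for the group mean ± SD (n = 3). For gst11, gst16, gst41 and the gst13 probe set the Cat100-6 control arrays are the low ones, while GST39 is highest there. The falls of the other members shown did not pass with the spiked scaling, under which 5.98% of all probe sets fell.

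The largest fall was that of GST39 (LOC541848), from 7.92, 8.14 and 7.99 in Cat100-6 control soil to 6.45, 5.90 and 6.98 in acid soil. S1587-17 read 6.20, 6.55 and 6.95 in control soil and 6.29, 6.35 and 6.26 in acid soil. Cat100-6 in control soil stood above the other groups, which overlapped each other. The fall was -1.57 ± 0.24 (adjusted p = 0.00056), a 2.98-fold decrease, and it was the only fall that passed under each of the 4 scalings. The spiked scaling raises every Cat100-6 response by the same amount. With it 5.98% of all probe sets fell, against 31.5% in the main fit. The root-preferential zrp4 was likewise highest in Cat100-6 control soil, with a difference of responses of -1.81 (adjusted p = 0.00571), and its part in the values of GST39 was not tested.

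The gene gst19 (LOC541834) read 9.95, 9.67 and 9.75 in Cat100-6 control soil and 9.05, 7.96 and 9.41 in Cat100-6 acid soil, against 9.70, 9.73 and 10.91 in S1587-17 control soil and 10.15, 10.32 and 10.18 in S1587-17 acid soil. Its fall of -0.99 ± 0.37 (adjusted p = 0.0402) was -0.56 without Cat100-6 acid soil replicate 2 (adjusted p = 0.157). The fall failed the test in 8 of the 12 fits that left out 1 array. The other falls in Cat100-6 were those of gst31 at 2 of its probe sets (-0.73 and -0.46), gst18 (-0.66), gst37 (-0.59), gst8 (-0.59), gst7 (-0.57), gst30 (-0.40) and gst32 (-0.37). With the spiked scaling none of these passed, and gst30, gst32 and the gst31 probe set Zm.556.1.S1_x_at turned to slightly positive values. Under that scaling 5.98% of all probe sets fell. The Cat100-6 means of gst32, 3.15 in control soil and 2.78 in acid soil, lie below the 3.27 median level of the seed marker probe sets. They are not shown to be above background, so the fall of gst32 may not be a change of expression.

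In S1587-17 no member passed the test of the response to acid soil, as for all probe sets (0%). At an unadjusted p under 0.05 there were 3 members, gst1, gst5 and gst11, against 3.49% of all probe sets. The gene gst5 (LOC542734) had the lowest of these, with 10.12, 10.05 and 10.34 in S1587-17 control soil and 10.50, 10.59 and 10.82 in acid soil, and with 11.49, 11.42 and 11.65 and then 11.43, 11.67 and 11.65 in Cat100-6. The S1587-17 groups did not overlap, and the difference was 0.47 ± 0.12 (unadjusted p = 0.00258, adjusted p = 0.873 by limma). For gst11 it was 0.53 ± 0.23 (unadjusted p = 0.0402, adjusted p = 0.873 by limma), and the arrays overlapped. Responses over the 35 members ran from -0.61 to 0.77 in S1587-17 and from -1.57 to 2.09 in Cat100-6. The ends in S1587-17 were gst24 and gst42, whose responses were -0.13 and 0.08 without the deviating array. Without S1587-17 control soil replicate 3 no member passed in S1587-17, and 4 members had an unadjusted p under 0.05, against 2.85% of all probe sets.

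**Figure D4:**
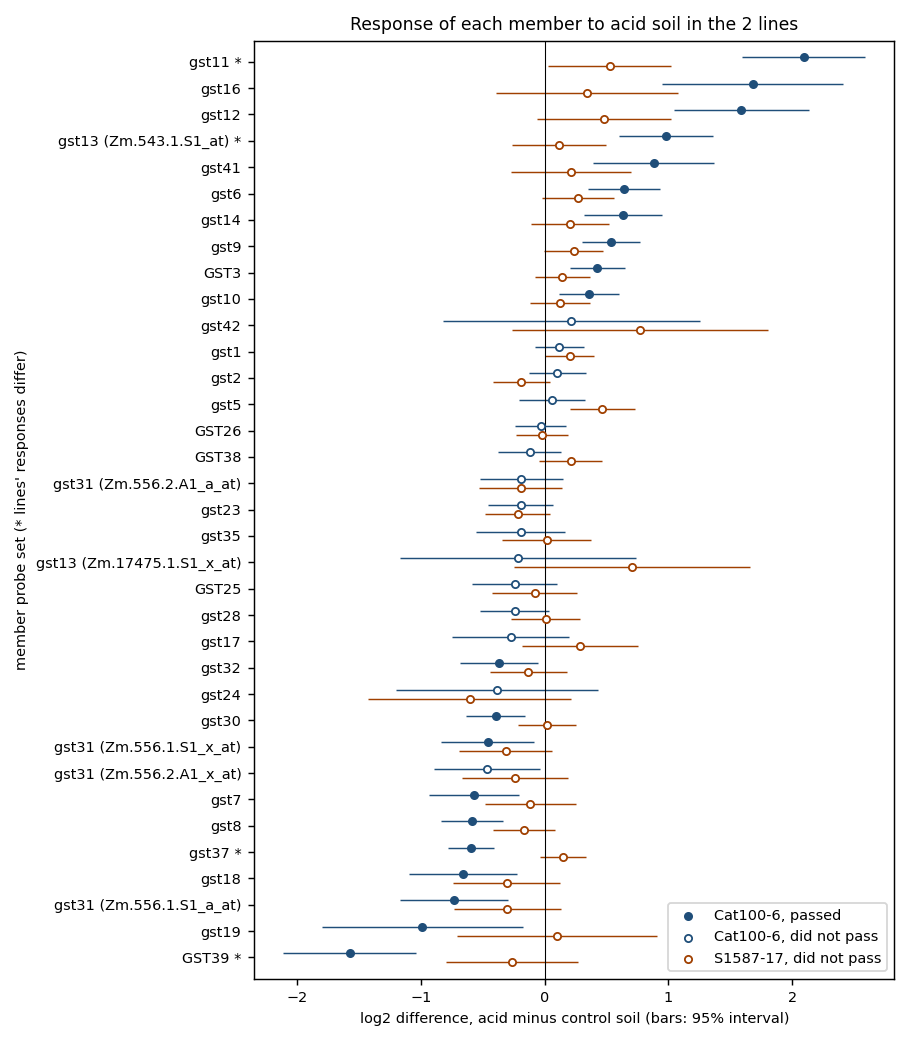
Response of each member probe set to acid soil in Cat100-6 and in S1587-17, as the log2 difference of acid minus control soil with its 95% interval. An asterisk marks the 4 members whose responses differed between the lines, gst11 and gst13 (Zm.543.1.S1_at) upward and GST39 and gst37 downward in Cat100-6. With the spiked scaling the responses of GST39 and gst37 no longer differed by the test.

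The responses of the lines differed at 4 members, 2 higher and 2 lower in Cat100-6, against 14.7% of all probe sets, 8.81% higher and 5.94% lower. The difference, Cat100-6 minus S1587-17, was 1.57 ± 0.32 for gst11 (adjusted p = 0.0133), 0.87 ± 0.24 for gst13 at Zm.543.1.S1_at (adjusted p = 0.0393), -1.31 ± 0.34 for GST39 (adjusted p = 0.0315) and -0.74 ± 0.12 for gst37 (adjusted p = 0.00489). For gst11, GST39 and this gst13 probe set, the lines differed in control soil and not in acid soil. The gene gst37 (LOC541846) went the other way, with 6.80, 6.76 and 6.93 in Cat100-6 control soil and 6.17, 6.27 and 6.26 in Cat100-6 acid soil, against 6.84, 6.82 and 6.84 in S1587-17 control soil and 6.90, 6.99 and 7.06 in S1587-17 acid soil. Its lines were level in control soil (0.00, adjusted p = 0.982) and apart in acid soil by 0.74 ± 0.08 (adjusted p = 7.92e-05). The spiked scaling lowers every line difference in acid soil by the same amount, and so narrows this gap. It took the median over all probe sets from 0.02 to -0.43. With that scaling neither the gst37 nor the GST39 difference of responses passed.

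The count depends on single arrays. With any array other than Cat100-6 acid soil replicates 1 and 3 and S1587-17 control soil replicate 3 left out, gst11 alone passed upward and gst37 alone downward, and without Cat100-6 acid soil replicate 1 gst37 was again alone downward. Without S1587-17 control soil replicate 3 the responses differed at 16 members, 6 higher and 10 lower in Cat100-6, against 45.1% of all probe sets, 20.7% higher and 24.4% lower. All 4 named above passed again, and gst12, gst16, gst41 and GST3 were higher as well. The lower ones then also included gst5, gst7, gst8, gst17, gst19, gst28, gst35 and the gst31 probe set Zm.556.1.S1_a_at.

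The 5 members that separated the lines and also moved with soil were gst6, gst9, gst10, gst18 and gst30, against 7.47% of all probe sets. In Cat100-6, gst6 and gst10 rose from the higher of the 2 line levels, gst9 rose from the lower one, and gst18 and gst30 fell from the higher one. For gst18 the group means were 7.35 ± 0.10 in control soil and 6.69 ± 0.33 in acid soil for Cat100-6, and 5.89 ± 0.40 in control soil and 5.58 ± 0.06 in acid soil for S1587-17 (SD, n = 3). For gst9 they were 7.58 ± 0.06, 8.12 ± 0.13, 8.88 ± 0.17 and 9.11 ± 0.06 in the same order. None of the 5 passed the test of the difference between the lines' responses, with adjusted p between 0.0786 and 0.382 by limma.

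The 8 members that did neither were gst1, gst17, gst23, GST25, gst28, gst35 and the gst31 probe sets Zm.556.2.A1_a_at and Zm.556.2.A1_x_at. The gene gst1, a phi class enzyme abundant in maize, had group means of 12.83 ± 0.05, 12.95 ± 0.11, 13.02 ± 0.10 and 13.23 ± 0.04 in Cat100-6 control, Cat100-6 acid, S1587-17 control and S1587-17 acid soil. Its line difference was 0.28 ± 0.09 in acid soil (adjusted p = 0.0439) and 0.19 ± 0.09 in control soil (adjusted p = 0.0939). The gene gst23, variants of which have been associated with resistance to several leaf diseases of maize, had means of 5.99 ± 0.15, 5.80 ± 0.15, 5.86 ± 0.07 and 5.64 ± 0.16 in that order, and none of its comparisons passed. Both gst17 and gst28 passed the test between lines in control soil and not in acid soil, with log2 differences in control soil of -0.65 (adjusted p = 0.0243) and -0.40 (adjusted p = 0.0211).

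The probe sets of gst13 differed in their values, and those of gst31 in which of them passed. No test between probe sets of a gene was run. For gst13, Zm.17475.1.S1_x_at separated the lines by 6.57 in acid soil while Zm.543.1.S1_at gave 0.00 ± 0.17 there (adjusted p = 0.996). In response to acid soil in Cat100-6, the former gave -0.21 ± 0.43 (adjusted p = 0.689) and the latter 0.98. A probe set whose name ends in x_at can share probes with other transcripts, so that the line gap at gst13 is uncertain as to the gene. For gst31, Zm.556.1.S1_a_at gave -0.73 ± 0.20 (adjusted p = 0.00945) and Zm.556.1.S1_x_at -0.46 ± 0.17 (adjusted p = 0.04) in that response, the latter failing the test in 8 of the 12 fits that left out 1 array. Its probe sets Zm.556.2.A1_x_at, at -0.46 ± 0.19 (adjusted p = 0.0606), and Zm.556.2.A1_a_at, at -0.19 ± 0.15 (adjusted p = 0.309), did not pass. All 4 values were negative, and those of all but Zm.556.1.S1_a_at turned positive with the spiked scaling.

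In the RefSeq annotation of the B73 genome 16 of the 31 genes lie in 5 groups of neighbours, with at most 9 protein-coding genes between one member and the next. In the first group gst11 and gst12 are adjacent, gst10 follows after 1 gene and gst31 after 9 more. All 3 of gst10, gst11 and gst12 rose in Cat100-6, by 0.35, 2.09 and 1.59, although gst10 did not pass with array medians subtracted, and gst31 did not rise. In the second group gst42 and gst32 are adjacent, and gst37, GST39, GST38 and gst30 follow one another after 3 genes. Its members ran in different directions: gst42 and GST38 were higher and gst30 lower in S1587-17 in both soils, while gst32, gst37 and GST39 fell in Cat100-6 in acid soil, of which only GST39 passed with the spiked scaling. The adjacent gst13, at Zm.17475.1.S1_x_at, and gst9 were both higher in S1587-17, by 5.65 and 1.29 in control soil. Neighbouring copies can be alike in sequence and share probes, which was not tested.

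**Figure D5:**
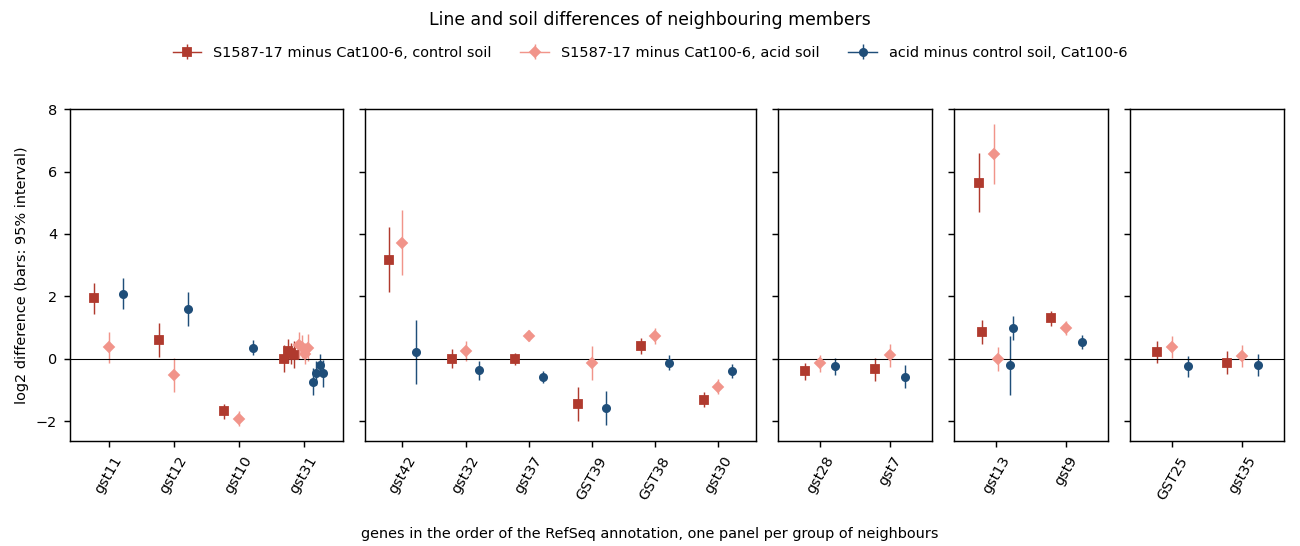
Log2 differences, with 95% intervals, of the genes in the 5 groups of neighbours, in annotation order along each horizontal axis: the line difference in control soil and in acid soil (S1587-17 minus Cat100-6) and the acid soil response in Cat100-6. The genes gst11, gst12 and gst10 share the sign of the Cat100-6 response, and gst42 and gst30 of the second group lie on opposite sides of 0 in the line differences.

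Other steps of the pathway were counted for comparison. Of 8 probe sets for glutathione synthesis and recycling, 1 rose and none fell in Cat100-6 in acid soil, against 23.6% and 31.5% of all probe sets. It was gsh1, the gene of the enzyme that makes γ-glutamylcysteine in the first step of glutathione synthesis, which rose by 0.71 ± 0.09 (adjusted p = 0.000221). Like gst11 it was higher in S1587-17 in control soil, by 0.60 ± 0.09 (adjusted p = 0.00028), and level in acid soil (0.00, adjusted p = 0.998), and its responses differed by 0.60 ± 0.13 (adjusted p = 0.0155). With the spiked scaling its rise was 1.20 (adjusted p = 0.000185). The list as a whole did not share this line difference. In control soil 2 of its probe sets were higher and 3 lower in S1587-17, against 23.3% and 28.4% of all probe sets. In acid soil 1 was higher and 1 lower, against 10.7% and 13.4%.

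Of 9 probe sets for sulfate reduction and cysteine synthesis, 6 fell and none rose in Cat100-6, where 31.5% of all probe sets fell, and 2 fell with the spiked scaling, where 5.98% did. Those 2 were aprl1 and sat1, a serine acetyltransferase gene. In the main fit aprl1 gave -1.64 ± 0.27 (adjusted p = 0.000769) and sat1 -1.41 ± 0.25 (adjusted p = 0.0012). With the spiked scaling aprl1 gave -1.14 (adjusted p = 0.0029 by limma) and sat1 -0.92 (adjusted p = 0.00667 by limma). The list's median response in the main fit was -0.62, against -0.14 over all probe sets. In S1587-17 the list was lower than in Cat100-6 at 6 probe sets in control soil and at 4 in acid soil, against 28.4% and 13.4% of all probe sets. Of 8 probe sets for conjugate transporters, cytochrome P450 and glycosyltransferases, 5 fell and none rose in Cat100-6, and 1 fell with the spiked scaling, against the same shares of all probe sets. The gene In2-1, a safener-induced maize glutathione transferase of the lambda class that carries no gst number, gave -0.36 ± 0.22 in that response (adjusted p = 0.185) and was higher in S1587-17 by 0.71 ± 0.22 in acid soil (adjusted p = 0.0377), which did not pass with the spiked scaling (adjusted p = 0.423). Its Cat100-6 acid soil arrays read between 3.24 and 3.36, which is not shown to be above background, so the size of this difference is not exact.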

How the data were processed

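Total RNA from leaves was hybridized to the Affymetrix GeneChip Maize Genome Array, 1 array for each of 12 samples. The deposited table holds log2 expression values made with RMA, per the submitters' processing notes, with software, version and settings not given in the sources used here. RMA values carry no detection calls, differences between dim probe sets are compressed, and arrays have no read depth, so their number limits the precision. Of 17734 probe sets, 113 array controls and 66 reporter-gene probe sets were left out, and 17555 were tested. The array annotation gives 1 gene symbol to 1452 of them, several to 1 and none to 16102, and 1377 were found in the RefSeq gene table of B73 (NAM 5.0), including all 35 members. That table was used for names and for neighbours only, since the array's design names no build. RefSeq lists gst4 as a synonym of both gst2 and GST3, and each is given under its own symbol.

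Groups and replicate numbers came from the sample titles. The source labels spell Cat100-6 as Ca100-6 and a shared description says root leaves, read here as Cat100-6 and leaves. One limma 3.58.1 model (R 4.3.3) held the 12 arrays as 4 group means, which leaves 8 residual degrees of freedom, and variances were moderated by empirical Bayes. Benjamini-Hochberg adjustment ran across the 17555 probe sets, with 0.05 as the limit for passing. Intervals are at 95%. The fit was tested on simulated data. The same replicate number did not mark related samples: correlations of same-numbered arrays' deviations ran from -0.292 to 0.19. Members, gene lists and tests were chosen with earlier results of these data known.

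Full values are given for up to 6 members with the largest line difference among those separating the lines. They are also given for up to 6 with the largest response in Cat100-6 among those moving with soil. Up to 4 whose responses differed most and the 2 with the lowest p in S1587-17 have them as well. Each probe set is given for genes whose probe sets differ in direction or call. Pathway lists were matched by symbol. Alternatives were array medians subtracted, scaling to 9 spiked hybridization controls, renewed quantile normalization, dropping the dimmest 40% of probe sets, array weights, fits of single pairs of groups, a robust trended variance, a block for the replicate number, a log2 difference of at least 1, 1 probe set per gene, each array left out, and, chosen after seeing the data, the reporter probe sets kept. Figures were drawn with matplotlib 3.10.9.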

Additional observations from a re-analysis of the deposited data

Results flagged for a closer look

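At 4 members the response to acid soil differed between Cat100-6 and S1587-17 by the test of the difference itself (limma, adjusted p under 0.05). The difference, Cat100-6 minus S1587-17 on the log2 scale, was 1.57 for gst11, whose responses were 2.09 and 0.53 in the 2 lines. It was 0.87 for gst13 at Zm.543.1.S1_at, with responses of 0.98 and 0.12. It was -1.31 for GST39, with responses of -1.57 and -0.26, and -0.74 for gst37, with responses of -0.59 and 0.15. Of these, gst11 and gst37 passed whichever single array was omitted, while gst13 failed in 9 and GST39 in 10 of those 12 fits. The part of S1587-17 control soil replicate 3 is given by the fit without it, in which all 4 passed. Groups of 3 arrays were too small to look for single outlying values.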

How the results depend on the processing

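Counts of members, higher and lower, stayed within 1.5 times the reported ones under the second quantile normalization, the trended and robust variance, the fit of only the groups compared, 1 probe set per gene and the reporter probe sets kept. Without the 40% dimmest probe sets, which leaves 23 members, 5 fell in Cat100-6 (32.5% of all probe sets), and 6 in control soil (34.2%) and 5 in acid soil (16.7%) were lower in S1587-17. With array medians subtracted the responses differed upward at 1 member (7.78%). Scaled to the spiked controls, 1 member fell in Cat100-6 (5.98%), 13 moved with soil (42.3%), responses differed upward at 5 (11.4%) and downward at 0 members (0.985%; limma, 2 as reported), and in acid soil 4 were higher (3.01%) and 13 lower (36.1%) in S1587-17. With array weights responses differed upward at 6 (19%) and downward at 8 members (21.3%). The replicate number as a block within each line, which does not pair these samples, left 1 upward (4.75%) and 1 downward (2.07%), with GST39 (adjusted p = 0.0636) and gst13 (adjusted p = 0.0622) lost. The number as a block over all arrays moved no count by over 1.5 times. At a log2 difference of at least 1, 3 rose (10.4%) and 1 fell (6.65%) in Cat100-6, responses differed at 1 upward (5.03%) and 1 downward (2.53%), 4 were higher (3.28%) and 4 lower (3.67%) in S1587-17 in acid soil, 7 separated the lines (5.14%) and 4 moved with soil (17%). Leaving out each array gave 1 to 6 upward and 1 to 10 downward differences of response, with the upper ends without S1587-17 control soil replicate 3, and 11 to 13 members separating the lines and 16 to 21 moving with soil.

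Some signs turned. The spiked scaling turned the passing Cat100-6 falls of gst30 (-0.40 to 0.10), gst32 (-0.37 to 0.13) and gst31 at Zm.556.1.S1_x_at (-0.46 to 0.036). The line difference in acid soil of gst13 at Zm.543.1.S1_at was 0.028 with quantile normalization, 0.050 with medians subtracted, 0.068 with array weights, and ran from -0.12 to 0.21 with an array left out (0.0072 and 0.021 among them). The Cat100-6 response of its other probe set was 0.28 with the spiked scaling and ran from -0.40 to 0.032 with an array left out. The spiked scaling gave the gst31 responses that had not passed as 0.31 at Zm.556.2.A1_a_at and 0.032 at Zm.556.2.A1_x_at. With that scaling gst37's difference of responses was -0.34 (adjusted p = 0.464) and GST39's -0.91 (adjusted p = 0.0652). The causes were not tested. Background correction and slide or scan date as a block were not run, since the table holds summarised values only.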
